A study of Mus musculus with 6 samples.

Results

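Cells sorted as CD140a(+)/Sca1(-) were compared between untreated muscle and muscle on day 3 after cardiotoxin, and the question was which of their genes stood higher or lower after acute injury. CD140a is the receptor for platelet-derived growth factor encoded by Pdgfra, and Sca1 is a surface antigen encoded by Ly6a. The comparison covered genes with a deposited value of at least 6, about 52.7 normalized counts, in either the control or the injured library. Of the 22483 genes measured, 5950 met this limit, and 847 of them had no read in the injured library and were left out as missing. The remaining 5103 genes are called the genes counted, and the change of a gene is its deposited log2 value in the injured library minus that in the control library. Genes close to the limit show what it does. Os9 was just inside, with 52.9 normalized counts in the control library and 0.937 after injury, and Wdfy2 was just outside, with 52.7 and 0.981.

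The study sorted stromal cells of Swiss white mice into 3 subpopulations, and each of the 6 groups has 1 library. Cardiotoxin, a peptide of cobra venom that destroys myofibers but leaves stem cells and stroma, was injected at 20 uM into the right hind limb of mice aged 8 to 12 weeks, and the untreated contralateral muscle gave the control cells. All groups shared an enzymatic dissociation, 8 h of surface marker recovery at body temperature and a gate that left out cells with CD45 (leukocytes), CD31 (endothelium) or CD11b (myeloid cells). The other subpopulations, CD140a(-)/Sca1(+) and CD140a(+)/Sca1(+), had the same control and injured states. The labels name the tibialis anterior muscle while the study's results text names other hind limb muscles for the acute injury, the number of mice behind a library is not given in the sources used here, and the study checked its sorts by flow cytometry. Daily BrdU injections are described for the animals of the study, and whether the sorted cells came from such animals is not given in the sources used here.

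Fibro-adipogenic progenitors and other stromal cells lie between the muscle fibers. They are known to carry CD140a, to divide and to lay down collagen-rich matrix after injury, and to release cytokines that draw in leukocytes and act on muscle stem cells. Their numbers normally fall again as new fibers form, and their persistence is known from fibrotic and fatty muscle.

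The sort and the libraries set limits that bear on every value. Pdgfra was at 33.6 normalized counts in the CD140a(+)/Sca1(-) control library and at 203 after injury. It stood higher, at 211 and 335, in the CD140a(-)/Sca1(+) libraries, so the mRNA of the control cells goes against the CD140a label, and the cells are named here by their sort. Pdgfra was at 26.3 and 1240.0 in CD140a(+)/Sca1(+) cells. Ly6a had 70.4 normalized counts in the control library and 2.09 after injury, below the range of 253 to 5850.0 in the 4 libraries of Sca1(+) cells. The injured CD140a(+)/Sca1(-) library also stood apart from the other 5. Its depth was estimated at 2094344 reads, against 3248554 in its control and 2346692 to 14174039 in the other libraries, and 69.1% of the genes were at 0 in it, against 28.2% to 39.0%. The genes with reads had a median of 94.2 normalized counts there and of 16.8 to 23.0 elsewhere. Of 1050 genes with 20 to 100 normalized counts in each of the other 5 libraries, 402 (38.3%) were at 0 in the injured library and 23.0% were between 20 and 100. The same check of each other library found no gene at 0 and 75.8% to 88.9% within the band. A count of 100 or 200 in this library may therefore rest on few molecules, and the Poisson intervals given below, exact at 95%, cover counting error only and are too narrow for it.

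**Figure D1:**
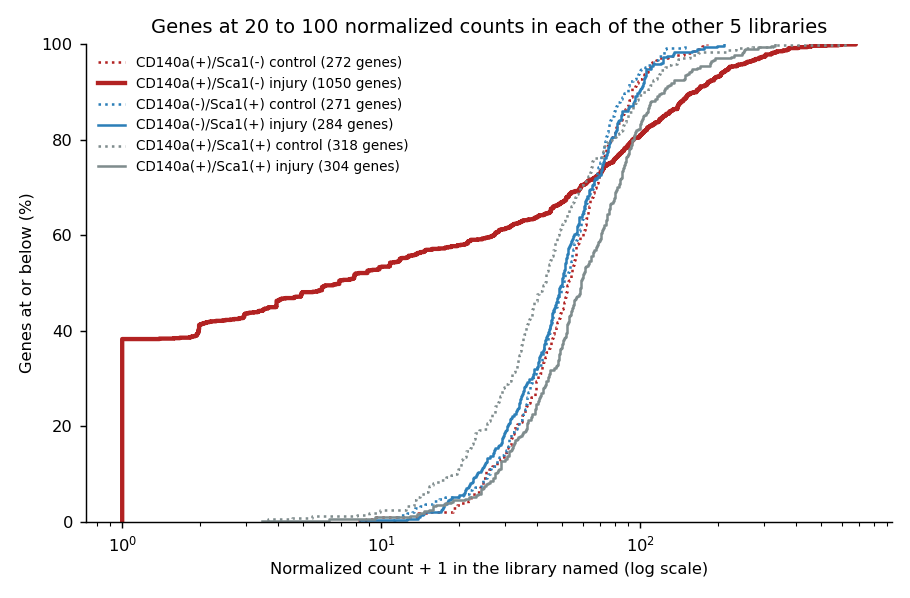
Cumulative share of genes (y axis, percent) by their normalized count plus 1 in one library (x axis, log scale), for genes at 20 to 100 normalized counts in each of the other 5 libraries. Each line is a library, dotted for control and solid for injury, with the number of genes in the legend. The thick line of injured CD140a(+)/Sca1(-) cells starts with 38.3% of its 1050 genes at 0 and runs to the right of the others at its top, while no gene of the other lines is at 0.

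Of the 5103 genes counted, 1174 were at least 3-fold higher after injury (23.0%), 798 were at least 3-fold lower (15.6%) and 3131 were neither. With 1 library a side there is no test of these changes, and no value has a replicate check. The limit itself shapes the counts. A gene below 6 in the control entered only if it was high after injury, so among the 4796 genes that reached 6 in the control library, 334 were at least 3-fold higher (6.96%), 798 were lower (16.6%) and the 847 missing ones (17.7%) were at 0. Of the 1174 higher genes, 503 had fewer than 20 normalized counts in the control, and 965 had fewer than 500 after injury. Among the 1099 genes with at least 500 in one of the pair, 209 were higher (19.0%) and 123 lower (11.2%). The median change of the genes counted was 0.32 on the log2 scale. Setting the medians of the pair equal moved the counts to 925 higher and 973 lower, from 59.5% to 48.7% higher among the genes that changed at least 3-fold, and keeping the missing genes at the table minimum gave 1174 higher and 1645 lower, or 41.6%. The balance of higher and lower genes therefore depends on the scaling and on the treatment of genes at 0, and the groups below are read against the background percentages.

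**Figure D2:**
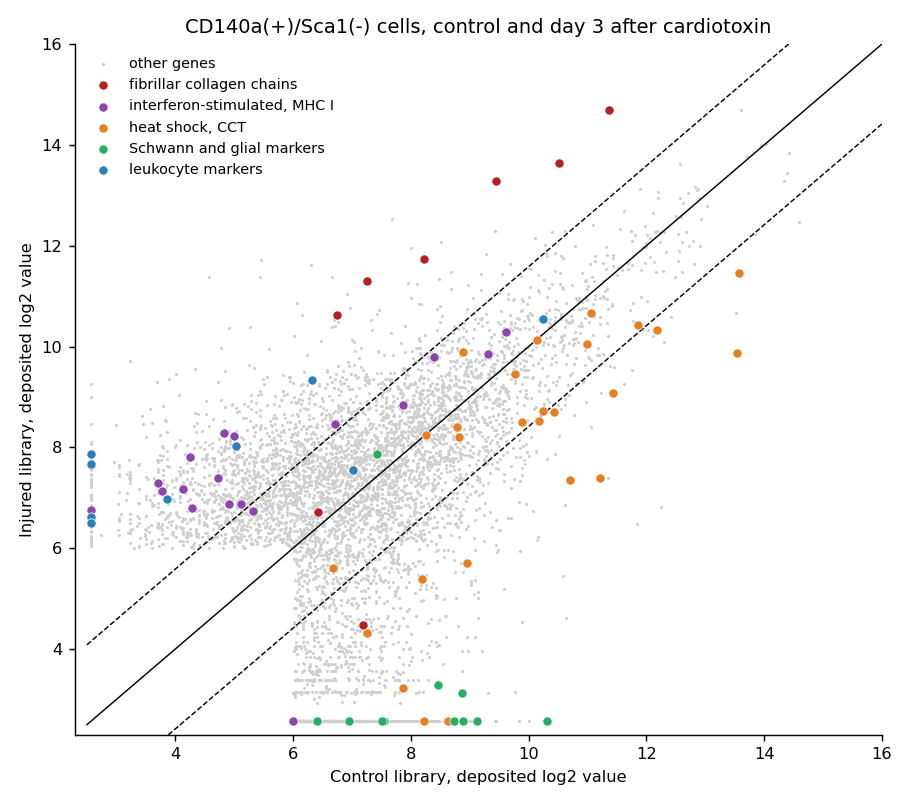
Deposited log2 values of the 5950 genes that met the limit in the control (x axis) and injured (y axis) CD140a(+)/Sca1(-) libraries, with 1 point a gene. The solid line marks equal values, the dashed lines mark a 3-fold difference, and the bottom row holds the 847 genes without a read after injury. Fibrillar collagen chains lie mostly above the upper dashed line, heat shock genes lie on or below the solid line with few exceptions, and the Schwann and glial markers lie mostly on the bottom row.

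Genes of the collagen-rich matrix stood higher after injury. Fibrillar collagens are the rope-like collagens that give scar its strength, and 6 of 8 chains counted were at least 3-fold higher and 1 was lower, with a median change of 3.42 beside 0.32 over the genes counted. All 8 chains had reached the limit in the control, so these counts do not depend on entry through the injured library. Col1a2, a chain of type I collagen, went from 2620.1 to 26346 normalized counts, 10.1-fold (9.73 to 10.4). Col1a1, its partner chain, went from 1458 to 12759.6. Col3a1, the chain of type III collagen, went from 682 to 9978, 14.6-fold (13.7 to 15.6), and Col5a1, a type V chain that starts new fibrils, from 141 to 2512. Col11a1, a cartilage collagen, was the lower one, with 134 and 11.9, and Col27a1 had 74.5 and 94.2. Summed over the 11 chains in the table, the list took 0.264% of all normalized counts before and 2.76% after injury. The same 8 chains had median changes of 4.06 in CD140a(-)/Sca1(+) and 3.92 in CD140a(+)/Sca1(+) cells.

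Enzymes and proteins that process, cross-link and decorate collagen followed the same direction. Of 8 lysyl oxidase and procollagen processing genes 7 were higher and none lower, with a median of 2.95, and 4 of the 5 that had reached the limit in the control were higher. Lox, the lysyl oxidase that cross-links collagen and elastin, went from 89.9 to 1320.0, 14.7-fold (12.3 to 17.6), and Bmp1, the protease that trims procollagen, from 31.3 to 514. Bmp1 entered through the injured library alone. Of 13 collagen hydroxylases and chaperones 5 were higher and 1 lower, and 4 of the higher ones had reached the limit in the control. Serpinh1, the collagen chaperone of the endoplasmic reticulum, had 145 in the control and 608 after injury. Sec23a, part of the coat that carries procollagen out of that compartment, was the lower one, with 109.8 and 13.7. Of 8 elastic fiber genes 5 were higher, but of the 5 that had reached the limit in the control 1 was higher and 2 were at 0 after injury. Eln (elastin), with 40.5 and 504, and Fbn1 (fibrillin 1), with 37.5 and 257, entered through the injured library alone. Of 4 type IV and VI collagen chains counted, 2 were higher and none lower. Among the 4 that had reached the limit in the control, 1 was higher and 1 was at 0 after injury. Col6a1, a chain of the beaded type VI collagen around cells, went from 109 to 2109. Col6a2, a partner chain, went from 37.7 to 357 and entered through the injured library alone. Col6a3, another partner chain, had 212 in the control and 77.1 after injury, short of 3-fold lower.

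Matricellular proteins, which sit in the matrix and signal to cells, included some of the largest differences. Of 21 counted, 12 were higher and none lower, with a median of 2.45, and 5 of the 14 that had reached the limit in the control were among them. Postn (periostin), a protein of healing and scarring tissue, lies on chromosome 3 from 54361109 to 54391037 of GRCm38 and went from 192 to 5919 normalized counts, 30.8-fold (27.3 to 34.6). Tnfaip6, which modifies hyaluronan in inflamed tissue, went from 19.3 to 1318, and Aspn (asporin), a small leucine-rich protein that binds TGF-beta, from 6.43 to 689. Ecm1, a secreted glycoprotein, went from 3.77 to 617. Tnfaip6, Aspn and Ecm1 entered through the injured library alone, so their large differences follow in part from the choice of genes. Sparc, which was abundant in both states, differed less, with 7215 and 9106. Among 14 proteoglycan and hyaluronan genes 8 were higher and none lower, 3 of them from the 10 that had reached the limit in the control. Bgn (biglycan) went from 92.5 to 1463, Prg4 (lubricin) from 236 to 2446, and the hyaluronan synthase Has2 from 9.64 to 173. Has2 entered through the injured library alone. Dcn (decorin), the most abundant of the list, had 3552 and 4732. Of 28 matrix proteases and inhibitors 14 were higher and 2 lower, against 6 and 2 of the 19 that had reached the limit in the control. Timp1, an inhibitor of metalloproteases, went from 77.5 to 1097, and Mmp3, a stromelysin, had 543 and 668.

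Cytokine genes of stromal cells stood higher as well. Of 12 chemokine genes 6 were higher and none lower, with a median of 1.55, and 5 of the 11 that had reached the limit in the control were higher. Ccl2, which draws in monocytes, went from 676 to 5029, 7.44-fold (6.96 to 7.96). Ccl7, a related chemokine, went from 53.3 to 1177, and Csf1, the growth factor of macrophages, from 406 to 1257. Cxcl1, a neutrophil chemokine and the most abundant of the list, had 12382 in the control and 26580.2 after injury, short of 3-fold. In the interleukin list 7 of 18 were higher and 1 lower, and of the 12 that had reached the limit in the control 2 were higher and 1 lower. The largest difference there was that of Il1rn, the natural antagonist of interleukin 1, which lies on chromosome 2 from 24336853 to 24351494 and went from 32.1 to 2664, 83.0-fold (62.7 to 112). Il1rl1, the receptor for interleukin 33, went from 89.9 to 2663 and Il1r1, the receptor for interleukin 1, from 15.9 to 613, while Il33 itself had 994 in the control and 665 after injury. Il1rn and Il1r1 were below the limit in the control and were counted only because they were high after injury. Of 4 prostaglandin genes, which had all reached the limit in the control, 3 were higher, and Ptgs2, the inducible cyclooxygenase, went from 164 to 1668. Of 14 genes of NF-kB feedback and adhesion 5 were higher and none lower, with 2 of the higher ones from the 11 that had reached the limit in the control. Vcam1, an adhesion molecule for leukocytes, went from 113 to 1719, and Tnfaip3, which shuts off NF-kB signaling, had no read in the control and 502 after injury.

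Growth factor genes showed a narrower set of differences. Of 19 genes of the TGF-beta, activin and BMP family 6 were higher and none lower, with a median of 0.40 beside 0.32 over the genes counted, and 2 of the 16 that had reached the limit in the control were higher. Inhba, the activin A subunit, went from 244 to 3966, 16.2-fold (14.6 to 18.1), its antagonist Fst (follistatin) was at 738 after injury, 73.7-fold higher (43.9 to 126), and Bmp2 went from 50.1 to 626. Of the PDGF genes 3 were counted, and Pdgfa alone had reached the limit in the control. Pdgfa, a ligand of CD140a, went from 611 to 3659.7, 5.99-fold (5.58 to 6.44), and Pdgfrl, a gene named for its likeness to the receptors, from 7.07 to 164. Pdgfra was 6.06-fold higher (4.47 to 8.41). Pdgfra, Pdgfrl, Fst and Bmp2 were counted only because they were high after injury. Of 10 Wnt ligands and antagonists 6 were higher. Of the 4 that had reached the limit in the control, however, 1 was higher and 1 was at 0 after injury. Genes of the list at 0 numbered 5 in the control and 18 after injury of 33, beside 38.3% and 69.1% of all genes measured. Sfrp2, a secreted Wnt binder, had no read in the control and 599 after injury. Ereg (epiregulin), a ligand of the EGF receptor, had 1.28 and 830.3, a ratio of 646 with a counting interval from 178 to 5345, since the control value is that of a few reads. Lepr, the leptin receptor and a marker of some stromal cells, had 8.11 and 223, against 9.10 and 23.0 in CD140a(-)/Sca1(+) and 25.7 and 27.8 in CD140a(+)/Sca1(+) cells. Sfrp2, Ereg and Lepr also entered through the injured library alone.

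**Figure D3:**
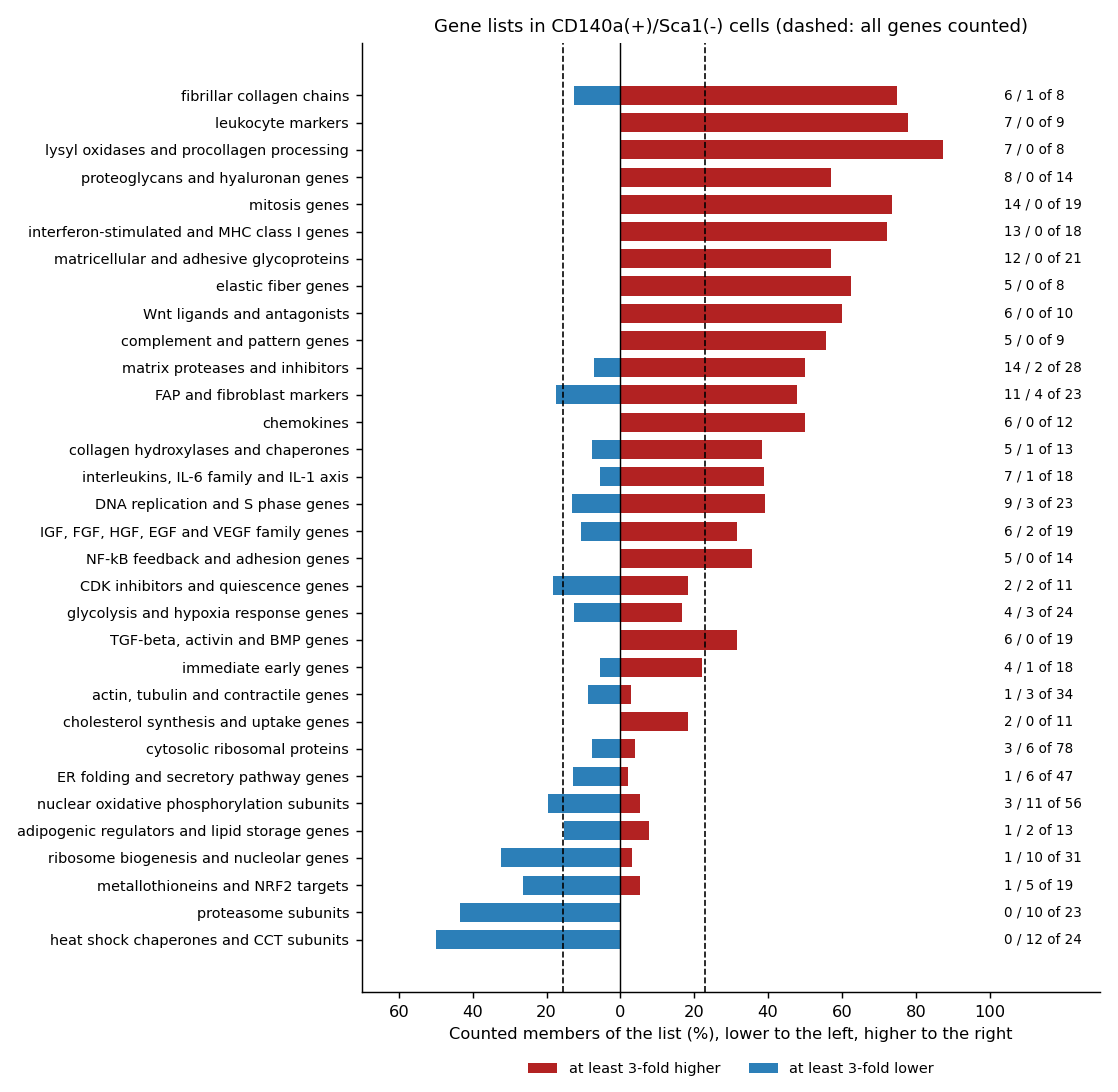
Share of the counted members of each gene list (x axis, percent) that were at least 3-fold higher (right) or lower (left) in CD140a(+)/Sca1(-) cells after injury, for the lists with at least 8 counted members (y axis), ordered by their median change. The numbers at the right are higher and lower of counted, and the dashed lines mark the 23.0% and 15.6% of the genes counted. A member below the limit in the control could be counted only if it was higher. Lysyl oxidases, leukocyte markers and fibrillar collagens reach the farthest to the right, and heat shock and proteasome genes the farthest to the left.

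Cell cycle genes gave a mixed picture. Of 68 mitosis genes 19 were at 0 in the control and 34 after injury, and of 56 DNA replication genes 8 and 24. Over all genes measured, 38.3% were at 0 in the control and 69.1% after injury, so more zeros are not particular to these lists. Of 19 mitosis genes counted, 14 were at least 3-fold higher and none lower, with a median of 2.60. Only 6 of the 19 had reached the limit in the control, and 2 of these were higher, while 11 had fewer than 20 normalized counts there. Smc4, a condensin subunit, went from 93.0 to 641, and Top2a, the topoisomerase that untangles chromosomes, from 7.07 to 185. Melk, a mitotic kinase, had no read in the control and 167 after injury. Bub3, a spindle checkpoint protein and an abundant member, had 799.6 and 490.1, and the histone gene H2afz had 1201 and 1522. Among the DNA replication genes 9 of 23 were higher and 3 lower, and of the 14 that had reached the limit in the control 2 were higher, 3 lower and 2 at 0 after injury. Mcm5, a subunit of the replicative helicase, went from 58.5 to 419, whereas Mcm2, a subunit of the same ring, had 72.8 in the control and 2.59 after injury. Cdkn1a, which encodes the cell cycle inhibitor p21, had 2116 in the control and 326 after injury, and it was lower in all 3 subpopulations. Over the 68 mitosis genes in the table, the summed share of normalized counts was 0.140% and 0.257%.

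Interferon-stimulated genes that were counted were mostly higher after injury, although 12 of the 13 higher ones entered through the injured library alone. Of all 51 genes of the list 10 were at 0 in the control and 23 after injury, beside 38.3% and 69.1% of all genes measured. Type I interferon switches on an antiviral program through the factors IRF9 and IRF7, and of 18 genes of this program and of MHC class I counted, 13 were at least 3-fold higher and none lower, with a median of 2.60. The median of the same genes was -1.36 in CD140a(-)/Sca1(+) and 1.27 in CD140a(+)/Sca1(+) cells. Only 6 had reached the limit in the control, of which Irf9 was higher, Psme2 was at 0 after injury and 4 were neither. Rsad2 (viperin), an antiviral enzyme, went from 21.2 to 289.6 here. It had 5931 in the control and 327 after injury in CD140a(-)/Sca1(+) cells, and 212 and 230.1 in CD140a(+)/Sca1(+) cells. Irf7 went from 4.44 to 129, and Usp18, which dampens the response, from 3.85 to 144. Irf9, with more counts in the control, went from 93.1 to 344, 3.69-fold (3.03 to 4.51). B2m, the light chain of MHC class I, had 621 and 916. The injured levels of Rsad2 in the 3 subpopulations lay between 230.1 and 327, and the control levels between 21.2 and 5931, so the pairs differ mainly in their control libraries.

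Promoter windows of RefSeq on GRCm38.p6, of the 250 bases before each start, were found for 14 of these 18 genes. The interferon response element was searched on both strands as GAAA, any 2 bases and GAAA, and 3 of the 14 genes held it, beside 3.46% of the 27025 genes with a window. The windows of the members with the largest changes among them are shown so that the site can be seen, in capitals, with the gene's start just beyond the last base.
Rsad2, chr12:26456453-26456702, minus strand: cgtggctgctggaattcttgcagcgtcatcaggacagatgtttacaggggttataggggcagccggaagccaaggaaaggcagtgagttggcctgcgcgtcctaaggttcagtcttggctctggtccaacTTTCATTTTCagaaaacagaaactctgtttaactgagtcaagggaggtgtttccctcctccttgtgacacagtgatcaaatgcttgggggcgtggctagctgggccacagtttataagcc
Irgm1, chr11:48871421-48871670, minus strand: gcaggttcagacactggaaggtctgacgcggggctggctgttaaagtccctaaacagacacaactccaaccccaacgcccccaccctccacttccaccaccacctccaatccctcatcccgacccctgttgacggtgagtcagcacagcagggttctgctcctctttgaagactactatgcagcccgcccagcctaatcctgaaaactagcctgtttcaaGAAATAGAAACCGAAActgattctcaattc
The site in Rsad2 begins 120 bases before the start, and Irgm1, a GTPase of the interferon response that had 9.39 and 100.4 normalized counts, holds overlapping matches within 30 bases of it. B2m also holds the site. A match is only a run of letters, and no match in the other windows says nothing of these factors.

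Chaperone genes stood lower. Of 27 heat shock chaperones and subunits of the chaperonin CCT that had reached the limit in the control, 12 were at least 3-fold lower and none higher. Of all such genes 16.6% were lower. At 0 after injury were 3 of the 27, beside 17.7% of all such genes. The median change of the 24 counted was -1.59. Heat shock proteins refold damaged proteins and are made in bulk under stress. Hsp90ab1 went from 11934 to 931 normalized counts, 12.8-fold lower, a change of -3.66 on the log2 scale, and Hsp90aa1 from 12094 to 2806. Hsph1 had 2369 and 156. Hspa1a had 1656 and 152, and it shares reads with its near-identical copy Hspa1b, so the division between them is uncertain. Cryab and Hspb1, small heat shock proteins of which the former is also in the glial list, had 1258 and 382 in the control and no read after injury. The summed share of the list was 2.62% of the normalized counts in the control and 0.737% after injury. The control libraries of CD140a(+) cells held more of it than those of CD140a(-) cells, with Hsp90ab1 at 25657 in CD140a(+)/Sca1(+) and 3067 in CD140a(-)/Sca1(+) cells. All cells had been kept for 8 h before the sort, and the part of this step in the chaperone values was not tested.

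The heat shock element, searched on both strands as GAA, any 2 bases, TTC, any 2 bases and GAA, was in the windows of 2 of 18 genes of the list, beside 0.514% of the genes with a window. Both are Hspe1 and Hspd1, the mitochondrial chaperonin pair, which start in opposite directions from one shared stretch.
Hspe1, chr1:55087898-55088147, plus strand: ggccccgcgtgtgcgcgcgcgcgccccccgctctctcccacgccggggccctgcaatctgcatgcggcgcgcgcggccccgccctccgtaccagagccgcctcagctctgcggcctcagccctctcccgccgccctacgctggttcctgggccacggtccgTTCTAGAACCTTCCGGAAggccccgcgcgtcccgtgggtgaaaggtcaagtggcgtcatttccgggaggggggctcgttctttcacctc
Overlapping matches, in capitals, begin 89 and 84 bases before the start of Hspe1. Hspe1 had 1151 normalized counts in the control and 356 after injury, 3.23-fold lower (2.88 to 3.63). Hspd1 had 1195 and 408, 2.93-fold lower (2.63 to 3.26), short of the limit on the log2 scale.

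Other housekeeping groups are set against all genes that had reached the limit in the control, of which 16.6% were lower and 6.96% higher. Of 29 proteasome subunits that had reached the limit in the control, 10 were lower and none higher. At 0 after injury were 6 of the 29, beside 17.7% of all such genes. The median of the 23 counted was -1.12 beside -0.61 and -0.62 in the other subpopulations. Psmc1, an ATPase of the regulatory cap, had 935 and 12.8, and Psmd11, the most abundant in the control, had 5465 and 1523, 3.59-fold lower (3.40 to 3.79). Psma2, a subunit of the core, had 1850.4 and 1705. Of 41 ribosome biogenesis genes that had reached the limit in the control 10 were lower and 1 higher. Of 62 such nuclear oxidative phosphorylation subunits 11 were lower and 2 higher, and the share of lower ones is close to that of all such genes. Among 21 metallothioneins and targets of the antioxidant factor NRF2 that had reached the limit in the control, 5 were lower, 1 higher and 2 at 0 after injury. Txnrd1, a thioredoxin reductase, went from 3657 to 77.6, 47.1-fold lower (37.8 to 59.7), and Gclm, which feeds glutathione synthesis, from 5006 to 1085. Taldo1 (transaldolase), an enzyme of the pentose phosphate pathway, went from 4826 to 101. The 78 cytosolic ribosomal protein genes changed little as a group, with 3 higher, 6 lower and a median of 0.09, and their summed share was 10.5% and 10.6%. Of the 62 oxidative phosphorylation subunits 8 were at 0 after injury, and of 41 ribosome biogenesis genes 10 were, beside 17.7% of all such genes.

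Markers of other cell types were not the same in the pair. Schwann cells are the glia that wrap nerve fibers. Of 20 markers of them 2 were at 0 in the control and 15 after injury, beside 38.3% and 69.1% of all genes measured. Kcna1, a potassium channel gene of the list, had 545 normalized counts in the control and no read after injury. S100b, a calcium-binding protein of glia, had 460.0 and 0, and Sox10, the master regulator of glia, had 73.2 and 0. Egfl8, another gene of the list, had 161 and 222. Of 11 Schwann and glial markers that met the limit, all in the control, 8 had no read after injury and 2 more were at least 3-fold lower. Of all genes that had reached the limit in the control 17.7% were at 0 and 16.6% were lower. The summed level of the 20 genes was 4295 in the control and 277 after injury, against 380.0 and 488 in CD140a(-)/Sca1(+) and 1429 and 586 in CD140a(+)/Sca1(+) cells. In bulk libraries fewer cells of a type and less RNA per cell cannot be told apart. Most endothelial and all red blood cell genes that met the limit were lower or at 0 after injury. Of 12 endothelial markers that met the limit 11 had reached it in the control, and 6 of these were at 0 after injury, beside 17.7% of all such genes. Cdh5 (VE-cadherin) had 146 and 0, and Fabp4, a fatty acid carrier of capillaries and fat, had 2590.1 and 156. Of the 6 counted 3 were lower and 1 was higher, Rgcc, a cell cycle regulator, with 25.7 in the control and 129 after injury. All 4 haemoglobin genes that met the limit were at 0 after injury, with Hbb-bs at 1205 in the control.

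Leukocyte markers that were counted stood higher, although the gate left out CD45(+) and CD11b(+) cells. Of 9 leukocyte markers counted 7 were higher and none lower, with a median of 3.11 beside 0.10 and 1.22 in the other subpopulations, and 1 of the 3 that had reached the limit in the control was higher. Tyrobp and Fcer1g, signaling adaptors of myeloid cells, had no read in the control and 222 and 87.3 after injury. Cd68, a lysosomal protein of macrophages, had 5.04 and 114, and Lyz2 (lysozyme), 21.8 and 249. Csf1r, the macrophage growth factor receptor, had 117 and 175. Of the 40 markers measured, 24 were at 0 after injury and 21 in the control, beside 69.1% and 38.3% of all genes measured. The summed level of the markers was 1524 in the control and 3398 after injury. Gpnmb, a glycoprotein of macrophages and other cells, went from 68.1 to 3133, and it was also higher in both other subpopulations. Des (desmin) went from 16.7 to 478, and Atp2a1, the calcium pump of fast fibers, from 1.09 to 125. Both entered through the injured library, and neither of the 2 muscle genes that had reached the limit in the control was higher. Of the 30 muscle genes 13 were at 0 in the control and 26 after injury, beside the same 38.3% and 69.1%. These leukocyte and muscle genes and the cytokine and matrix genes above differ in the same library, and the part of the former in the latter was not tested.

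**Figure D4:**
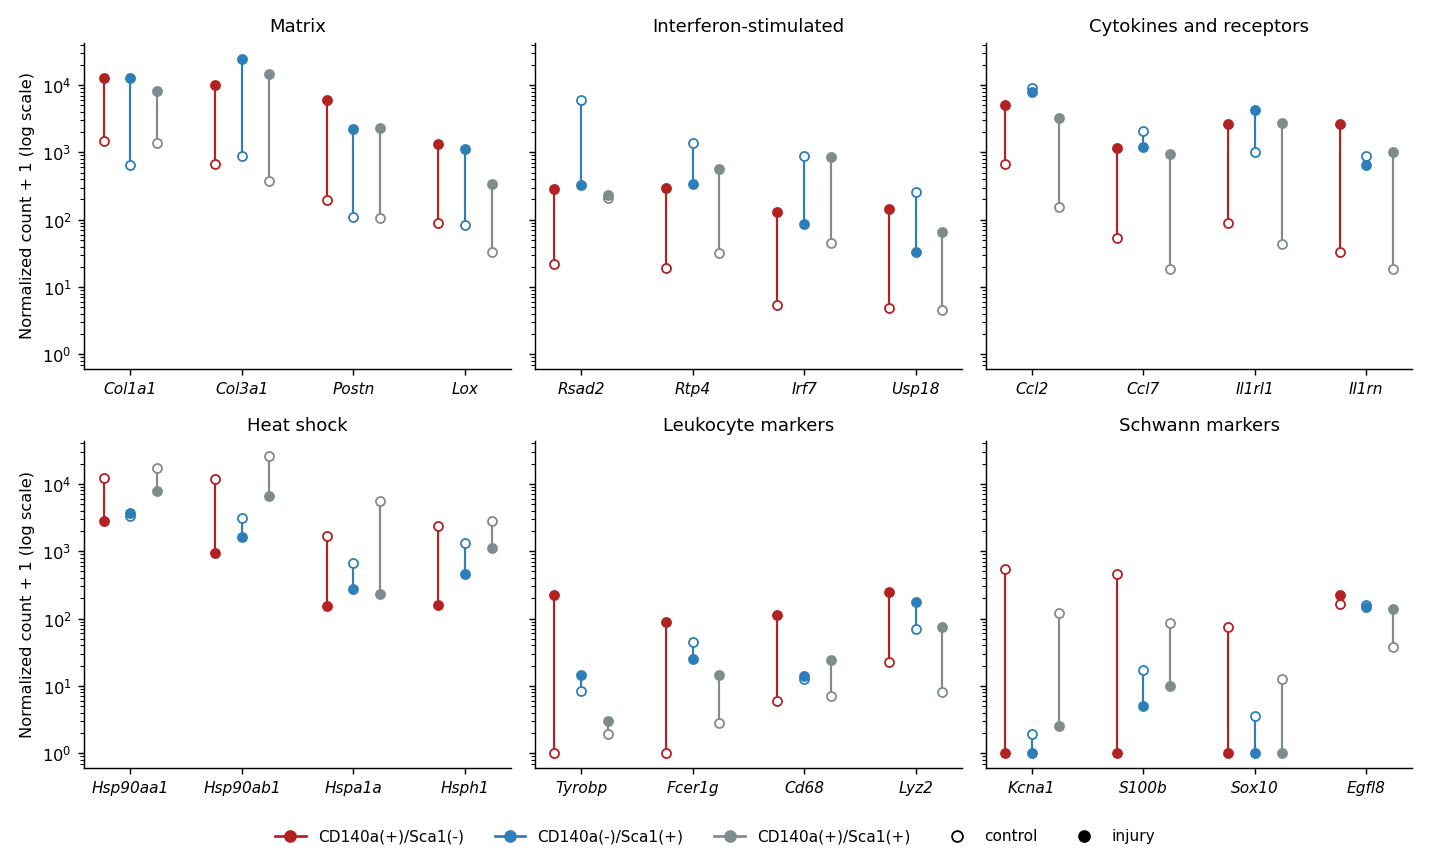
Normalized count plus 1 (y axis, log scale) of genes of 6 groups (x axis) in control (open circles) and injured (filled circles) libraries, 1 library a circle, with a line joining the pair of each subpopulation. Collagen genes lie higher after injury in all 3 subpopulations, Rsad2 lies higher in CD140a(+)/Sca1(-) (21.2 to 289.6) and lower in CD140a(-)/Sca1(+) cells, and S100b goes from 460.0 to 0 in CD140a(+)/Sca1(-) cells.

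Markers of fibroblasts and progenitors were split. Of 23 counted 11 were higher and 4 lower, and from the 15 that had reached the limit in the control 2 were higher and 4 lower. Gfpt2, the first enzyme of the hexosamine pathway, went from 16.7 to 987, and Mfap5, a microfibril protein of interstitial fibroblasts, from 573 to 2759. Gsn (gelsolin) had 492 in the control and 74.9 after injury, and Mme (neprilysin) 174 and 11.7. Cd34 had 66.4 and 38.4. Dpp4, a marker of a universal fibroblast subset, had 59.1 in the control and no read after injury. Acta2, the smooth muscle actin of contractile fibroblasts and mural cells, had 749.7 in the control and 392 after injury. In both other subpopulations it was higher after injury than in their own control. It had 82.8 and 224 in CD140a(-)/Sca1(+) and 275 and 867 in CD140a(+)/Sca1(+) cells.

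The other pairs, which have no library in common with this one, were read over the same genes. These 5103 genes were chosen by their values in this pair, and 1154 of them reached the limit in its injured library alone. Genes without a read in that library were left out. The shares and overlaps below are shaped by this choice, and genes higher in another pair are counted among these genes only. Of the same 5103 genes, 179 were at least 3-fold higher (3.51%) and 160 lower (3.14%) in CD140a(-)/Sca1(+), and 770 were higher (15.1%) and 324 lower (6.35%) in CD140a(+)/Sca1(+) cells. Of the 1174 genes higher here, 362 (30.8%) were also higher in CD140a(+)/Sca1(+), which is 47.0% of the genes higher there, and 125 (10.6%) in CD140a(-)/Sca1(+), which is 69.8% of the genes higher there. In all 3 pairs 89 genes were higher, or 7.58% of those higher here, beside 113 of all genes counted (2.21%) that were higher in both others. They include the collagens Col1a1, Col1a2, Col3a1, Col5a1, Col5a2 and Col5a3, the matrix genes Postn, Fn1, Eln, Lox and Bgn, and Inhba, Ptgs2 and Timp1. In all 3 pairs 24 genes were lower, among them the endothelial genes Angpt2, Cd93, Emcn and Selp, and Fabp4, Cdkn1a and Taldo1, beside 57 (1.12%) that were lower in both others. Of these 24 genes 5 are olfactory receptor genes.

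**Figure D5:**
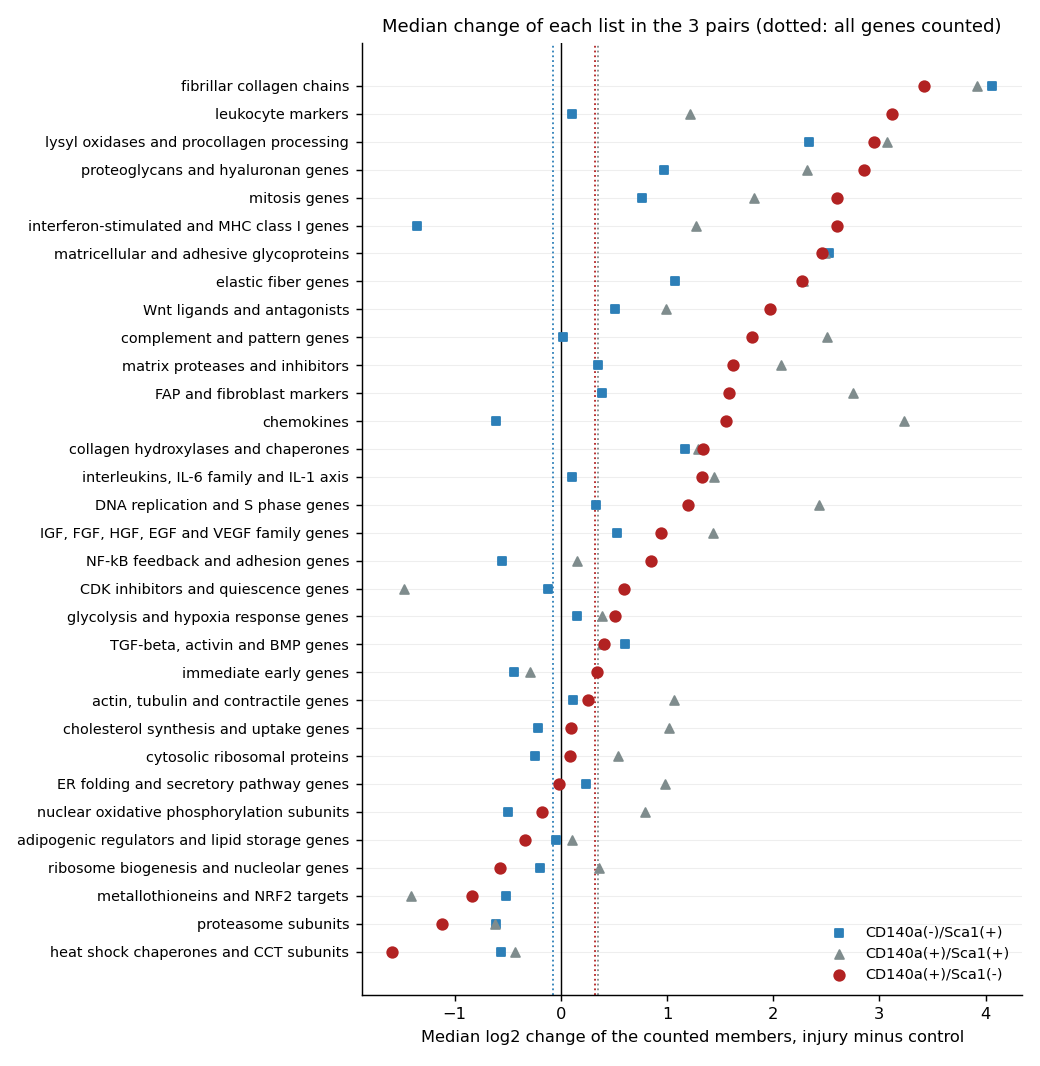
Median log2 change, injury minus control, of the counted members of each list (x axis) in CD140a(+)/Sca1(-) (circles), CD140a(-)/Sca1(+) (squares) and CD140a(+)/Sca1(+) cells (triangles), for the lists with at least 8 counted members (y axis), with dotted lines at the medians of the genes counted. Fibrillar collagens lie between 3.42 and 4.06 in all 3 pairs, whereas interferon-stimulated genes lie at 2.60, -1.36 and 1.27 and heat shock genes at -1.59, -0.56 and -0.43. Members were counted by their values in the CD140a(+)/Sca1(-) pair, so its medians are shaped by that choice. Of the interferon list 18 genes were counted, while 6 had reached the limit in the control, with 1 of these higher.

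The test of the difference asked which genes changed otherwise here than in the mean of the other 2 pairs. With limma, 90 genes had a higher change (1.76%) and 86 a lower change (1.69%) at an adjusted p under 0.05, and 854 had an unadjusted p under 0.05. The genes were taken by their values in the same pair, and 86 of the 90 were below the limit in the control and 84 of the 86 below it after injury, so this split of directions follows from the choice of genes and is no result. A choice that does not look at the pair's difference, added after seeing the data, took the 4350 genes with a mean of at least 6 over all 6 libraries and kept genes at the minimum. It gave 23 genes with a higher change (0.529%) and 310 with a lower change (7.13%), and 220 of all these genes were at 0 in the injured library, the one with 69.1% of genes at 0. Of the 90 and 86 genes, 19 and 72 were tested there, and all of them passed. A gene's difference comes from the same 6 values in both fits, so passing in both is no independent support. Both fits have 1 residual degree of freedom and borrow their spread across genes, so all genes share a standard error of 1.25 on the log2 scale in the first and 1.28 in the second. That spread is the one between the other 2 pairs. The middle spread of changes was wider in this pair, with an interquartile range of 1.95 against 0.88 and 1.45 for the 2188 genes at 100 to 500 normalized counts in the control, so the p-values may be too small for the injured library, and 78 of the 90 had fewer than 500 normalized counts in it. When the first was limited to genes with at least 500 normalized counts in one of the pair, a limit chosen after seeing the data, 15 genes differed, 10 higher and 5 lower, and all 15 are among the 176. Not every well counted gene called in the first fit was called under this limit, and Ecm1, Txnrd1 and Psmc1 were not. Erlin1, a protein of the endoplasmic reticulum, lies on chromosome 19 from 44034944 to 44069785. It went from 32.8 to 3335 normalized counts here, while CD140a(-)/Sca1(+) cells had 42.7 and 8.72 and CD140a(+)/Sca1(+) cells 16.4 and 37.8, a difference of 6.59 from the others (limma adjusted p = 2.67e-04, and 2.56e-04 over the 4350 genes). Tmem170, a membrane protein gene on chromosome 8 from 111863038 to 111876750, went from 13.5 to 2649, while the other 4 libraries held between 5.30 and 24.4, but its mean was too low for the 4350 genes, so its call rests on its entry through the injured library. Tnrc6b, a partner of Argonaute in silencing by miRNAs, went from 27.6 to 1319 and stood lower after injury in the other pairs, with 82.4 and 40.2 and with 235 and 149. It passed in both fits. Rsad2 differed by 5.25 and passed in both fits, as did Mx2 of the interferon list, which the annotation marks as a polymorphic pseudogene.

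Among well counted genes with a lower change here was Aldh2. Aldh2, a mitochondrial aldehyde dehydrogenase, had 857 normalized counts in the control and 0.981 after injury, and it had 514 and 519.6 in CD140a(-)/Sca1(+) and 1602 and 443 in CD140a(+)/Sca1(+) cells. Its change was -6.61, and it differed by -5.71 from the other pairs (limma adjusted p = 0.00255, and 0.00107 over the 4350 genes). Sars, the seryl-tRNA synthetase, had 1586 and 14.0, while the other 4 libraries held 451 to 1120.3. Cltb, a clathrin light chain, had 623 and 0.918, and Pa2g4, a regulator of ribosome assembly and growth, had 580.1 and 5.89. Txnrd1 differed by -4.37, and Col6a3 by -5.27. Aldh2 and Cltb rest on a value of about 1 read after injury. The counting interval of the ratio runs from 156 to 34513 for Aldh2 and from 114 to 25103 for Cltb. No fibrillar collagen, chemokine, mitosis, lysyl oxidase or proteoglycan gene passed the test over the genes counted, which does not show that they changed alike.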

How the data were processed

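RNA of sorted cells was sequenced from 3' ends (QuantSeq, Ion Proton), with 1 library for each of 6 groups. Per the methods and labels, the authors trimmed reads with FastX-Toolkit, aligned them with STAR to mm10 (GRCm38), counted genes of Ensembl release 90 with BRB-seqtools and deposited variance-stabilized log2 values from DESeq2. The deposited log2 values shrink differences of low genes. They were turned back into normalized counts, with the table minimum of 2.57 as no read. Reads per library were estimated from the smallest step between values, and 55.9% to 63.8% of low values came out whole within 0.02 reads, so no count test was run. Symbols and positions are from GENCODE on GRCm38, which named 22453 of 22483 genes. A change of 3-fold on the deposited log2 scale was counted as higher or lower. The difference from the other 2 subpopulations was tested with limma 3.58.1 in R 4.3.3 with Benjamini-Hochberg adjustment, and the rest was computed with Python 3.11.15, numpy 2.4.6, pandas 2.3.3 and scipy 1.17.1. The test was run on the genes counted and, added after seeing the data, on genes with a mean of at least 6 over all libraries. It was tried on simulated data first, with the same spread of noise in every pair. That trial could not show how the test does with the wider spread of the CD140a(+)/Sca1(-) pair. With 1 library a group, p-values measure only the spread between the changes of the other 2 subpopulations. That spread may be technical or a real difference between them, and it holds nothing of the noise of the CD140a(+)/Sca1(-) pair.

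The members and the 42 gene lists were chosen with earlier results of these data known. Of 1307 list genes 2 were not matched. Named genes were the 4 largest changes of each list among genes at least 3-fold changed with 20 normalized counts in one of the pair (or, where a list had none, the 4 with the highest mean), the 15 largest changes in each direction among genes with reads in both libraries and 100 normalized counts, the 10 lowest p-values in each direction of the comparison with the other subpopulations, and genes that the study names. Genes named outside this rule, such as Col1a1, Col1a2, Rsad2, Irf9, Sparc, S100b, Hspe1 and B2m, were picked with their values in view, that is, chosen after their values were seen. Other settings covered the limit, pseudocount, scaling, fold and handling of the minimum. Some genes are not reported here.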

Additional observations from a re-analysis of the deposited data

Results flagged for a closer look

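The change in CD140a(+)/Sca1(-) cells differed from the mean change of the other subpopulations for 44 of the genes taken by the rule for named genes (limma, adjusted p under 0.05). Rsad2, named outside that rule, also differed, by 5.25. All 23 genes with a higher change were below the limit in the control and were counted only because they were high in the injured library, so their direction follows from the choice of genes. Of the 44 genes 25 also passed among the 4350 genes taken by their mean over all libraries. Tmem170, Zkscan5, Tnfaip3 and Tyrobp were among those whose mean was too low to be tested there. A gene's difference is the same in both fits, so passing in both is no independent support. The difference on the log2 scale is given after each gene. The genes with at least 500 normalized counts in one of the pair are the better counted of them. Higher here among these were Erlin1 (6.59), Tmem170 (6.49), Tnrc6b (5.85), Zkscan5 (5.31), Tnfaip3 (4.93) and Ecm1 (4.35). Lower here were Aldh2 (-5.71), Pa2g4 (-5.09), Sars (-5.09), Cltb (-4.95), Txnrd1 (-4.37) and Psmc1 (-3.99). Of these better counted genes, Ecm1, Txnrd1 and Psmc1 did not pass when the test was limited to genes with that many counts. The remaining genes rest on fewer counts in a library where many genes of that level were at 0. Higher here among them were Jchain (6.85), Plekhg1 (6.71), Cd274 (6.28), Rpl27-ps3 (6.24), Myo1f (5.66), Vmn1r193 (5.66), Nr2e1 (5.43), Focad (5.23), Gng7 (5.17), Olfr221 (4.96), Mx2 (4.95), Tyrobp (4.93), Lef1 (4.82), Psmb10 (4.71), Col15a1 (4.30), Il1b (4.30) and Nfkbie (4.18). Lower here were Mlec (-6.45), Bicc1 (-6.15), Mrps17 (-6.02), Spr (-5.43), Eps8 (-5.32), Col6a3 (-5.27), Arpc5l (-5.24), Lrrc61 (-5.21), Nop10 (-5.17), Spcs1 (-4.75), Kansl2 (-4.69), Sart1 (-4.52), Noc2l (-4.29), Mcm2 (-4.14) and Cct3 (-4.08). Jchain, an immunoglobulin joining chain, Olfr221, an olfactory receptor, Vmn1r193, a vomeronasal receptor, and Rpl27-ps3, a ribosomal protein pseudogene that can share reads with its parent gene, are not usual genes of stromal cells. Every group has 1 library, so a sample that stands apart within a group could not be looked for.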

How the results depend on the processing

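No paired analysis was possible because each group has 1 library without a replicate number, apart from the pairing of control and injury within a subpopulation that every change and the limma fit already use, and no replicate could be left out. A limit of 8 on the deposited value, which kept 2231 genes, gave 482 higher and 277 lower genes, 59 higher and 10 lower in all 3 pairs, and 47 that differed from the other subpopulations. A limit of 500 normalized counts in one of the pair, chosen after seeing the data, gave 209 higher, 123 lower, 39 and 4 in all 3 pairs, and 15 that differed. Both keep fewer genes by construction. Genes with a mean of at least 6 over all libraries, also chosen after seeing the data, gave 333 that differed, since genes at 0 after injury are kept. Keeping genes at the table minimum gave 1645 lower genes. Genes lower in all 3 pairs numbered 39 with log2 of the normalized count plus 1, 41 with a pseudocount of 0.5 and 37 with medians set equal, and the cause was not tested. Genes that differed numbered 281 with a variance trend and 399 with the pseudocount of 1, and the cause was not tested. The other alternatives left these counts within 1.5 times. Of 546 values of 182 named genes under the alternatives, 545 kept their sign, 63 moved by more than their counting interval and none of the called ones reversed. Of 252 counts over lists 48 moved. The injured CD140a(+)/Sca1(-) library had the lowest estimated depth, and 3 reads amount to 2.94 normalized counts in it. In the CD140a(+)/Sca1(+) control library 3 reads amount to 2.65. Genes at 0 were 69.1% in the former and 33.4% in the latter, and the cause was not tested.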
